A study of Mus musculus with 6 samples.

Results

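The complement genes described here are 9 genes that stromal cells are known to express, C3, C4b, C1ra, C1s1, Cfb, Cfd, Serping1, Cd55 and Cd59a. They were chosen by symbol, with earlier results of these data known. All 9 were found by Ensembl identifier among the 21666 genes of the count matrix. The counts come from 6 RNA-seq libraries made from satellite cells, which are muscle stem cells, taken from mouse skeletal muscle and differentiated over 2 days. One group of 3 libraries is from mice with the long noncoding RNA lncMREF knocked out (KO), and the other 3 are from wild-type (WT) mice. The labels name no strain, age, sex or kind of deletion. Nor do they say whether replicates came from separate animals, so the p-values reflect variation among these libraries that could be technical. Library totals ran from 17919826 to 23646805 counts in KO and from 20193337 to 28430678 in WT. No gene identifier was matched to lncMREF, and its loss in KO was therefore not examined. The cell label was checked against markers: all 10 genes of a differentiating muscle list were tested and present in both groups, and Myod1, the myogenic transcription factor, stood at 93.5 ± 3.73 counts per 1000000 counts of the library (CPM) in KO and 302 ± 9.93 in WT (SD, n = 3 each). The counts exist in a second version, as 1 table per library, whose values for the same genes are different: Myod1 has 0 counts in all 6 of those tables and 1734 to 2292 (KO) and 5778 to 7803 (WT) in the matrix. Actb, the cytoplasmic actin that cells express at high levels, has 25 to 38 counts in KO and 27 to 40 in WT there, against 21496 to 27994 in KO and 21841 to 31304 in WT in the matrix. All values are from the matrix unless the tables are named.

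Complement is a cascade of proteases and binding proteins that tags surfaces for clearance. In the classical pathway, C1q recognises a target and the proteases C1r and C1s, encoded in mouse by C1ra and C1s1, cleave C4 (C4b) and C2, which leads to cleavage of C3, the shared centre of all pathways. The alternative pathway amplifies this step through factor B (Cfb) and factor D (Cfd). Serping1 encodes C1 inhibitor, which blocks C1r and C1s; Cd55 (decay accelerating factor) and Cd59a are anchored in the cell membrane and protect the host cell from C3 convertases and from the membrane attack complex. The liver makes most circulating complement, and fibroblasts and other stromal cells make several components locally.

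Promoter windows are shown for 4 members: C3 and Cd55, which fell by the largest folds among tested members, and C1ra and Cd59a, which rose. Each window runs from 250 bases before to 50 after the annotated start, 5′ to 3′ on the gene's strand, from RefSeq on GRCm38.p6. Of the 9 members, 6 had a window: C3, C1ra, C1s1, Cfd, Cd55 and Cd59a. The windows shown are chr17:57228087-57228386 (minus strand) for C3, chr1:130462695-130462994 (minus) for Cd55, chr6:124512371-124512670 (plus) for C1ra and chr2:104095551-104095850 (plus) for Cd59a. Capitals mark matches to 5 motifs searched on both strands: C/EBP (TTGCNNAA), STAT (TTCNNNGAA), the interferon-stimulated response element ISRE (GAAA repeated after any 2 bases), the core promoter element with the letters TATAAA (the TATA motif) and the NF-kB consensus.
C3: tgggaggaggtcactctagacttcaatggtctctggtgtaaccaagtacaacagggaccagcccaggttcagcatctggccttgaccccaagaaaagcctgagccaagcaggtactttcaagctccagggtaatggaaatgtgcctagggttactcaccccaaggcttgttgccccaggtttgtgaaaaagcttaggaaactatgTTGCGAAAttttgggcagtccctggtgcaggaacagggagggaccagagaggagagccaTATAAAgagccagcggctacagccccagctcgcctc
Cd55: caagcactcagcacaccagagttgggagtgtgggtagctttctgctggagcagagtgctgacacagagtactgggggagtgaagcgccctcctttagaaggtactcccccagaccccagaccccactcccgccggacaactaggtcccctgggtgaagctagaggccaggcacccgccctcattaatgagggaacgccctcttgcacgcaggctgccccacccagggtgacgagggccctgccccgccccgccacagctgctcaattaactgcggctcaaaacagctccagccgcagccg
C1ra: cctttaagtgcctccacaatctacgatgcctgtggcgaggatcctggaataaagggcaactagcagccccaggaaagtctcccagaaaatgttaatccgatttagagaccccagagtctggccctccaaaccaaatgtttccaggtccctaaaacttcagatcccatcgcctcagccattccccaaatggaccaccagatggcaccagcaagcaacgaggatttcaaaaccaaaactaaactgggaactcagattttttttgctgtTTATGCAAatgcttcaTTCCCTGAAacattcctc
Cd59a: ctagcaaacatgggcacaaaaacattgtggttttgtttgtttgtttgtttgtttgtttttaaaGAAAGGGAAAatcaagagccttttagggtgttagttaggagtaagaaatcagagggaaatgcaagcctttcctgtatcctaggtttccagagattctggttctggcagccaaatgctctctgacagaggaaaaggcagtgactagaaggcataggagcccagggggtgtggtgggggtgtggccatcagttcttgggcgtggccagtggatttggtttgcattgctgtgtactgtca
The C3 window held a C/EBP match beginning 45 bases before the start and a TATA match beginning 14 bases after it. The C1ra window held a C/EBP and a STAT match after its RefSeq start, and the Cd59a window an ISRE match. The gene start of C1ra given below, 124512405, lies within the C1ra window but upstream of that RefSeq start. No letters of the 5 motifs were matched in the Cd55 window. None of the matches shown overlaps another. Over all 32851 windows of this length in the table, 10.8% held the C/EBP motif, 8.3% the STAT motif, 3.44% the ISRE, 13.6% the TATA motif and 8.46% the NF-kB motif. A match is a description of these letters and not a binding site.

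The complement members changed in both directions in KO cells. C3 was lower by the largest factor, followed by Cd55, Serping1 and C4b; the protease gene C1ra and the membrane inhibitor Cd59a were higher, and C1s1, the partner protease, was not called. Of the 9 members, 7 passed the filter on low counts, and edgeR's quasi-likelihood test at a Benjamini-Hochberg adjusted p under 0.05 called 6, of which 4 were lower and 2 higher in KO. Of all 15518 genes tested, 66.7% were called, 33.0% lower and 33.7% higher, so calls are frequent in this comparison. Nothing particular to the members is read from their counts of 4 lower and 2 higher of 7. The median log2 fold change (KO over WT) of the 7 was -0.96, against 0.021 over all genes tested. As the members were chosen with earlier results of these data known, this difference is a description and not a test of the set. C3 and Cd55 were called and over 2-fold lower, as were 9.38% of all genes tested; no member was called and over 2-fold higher, against 8.56% of all genes. For 6 of the 7 tested members the KO and WT libraries did not overlap, which held for 69.4% of all genes tested; KO lay below WT for 4 of the members and for 34.1% of all genes. In these bulk samples, fewer cells of a type and less RNA per cell cannot be told apart.

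**Figure D1:**
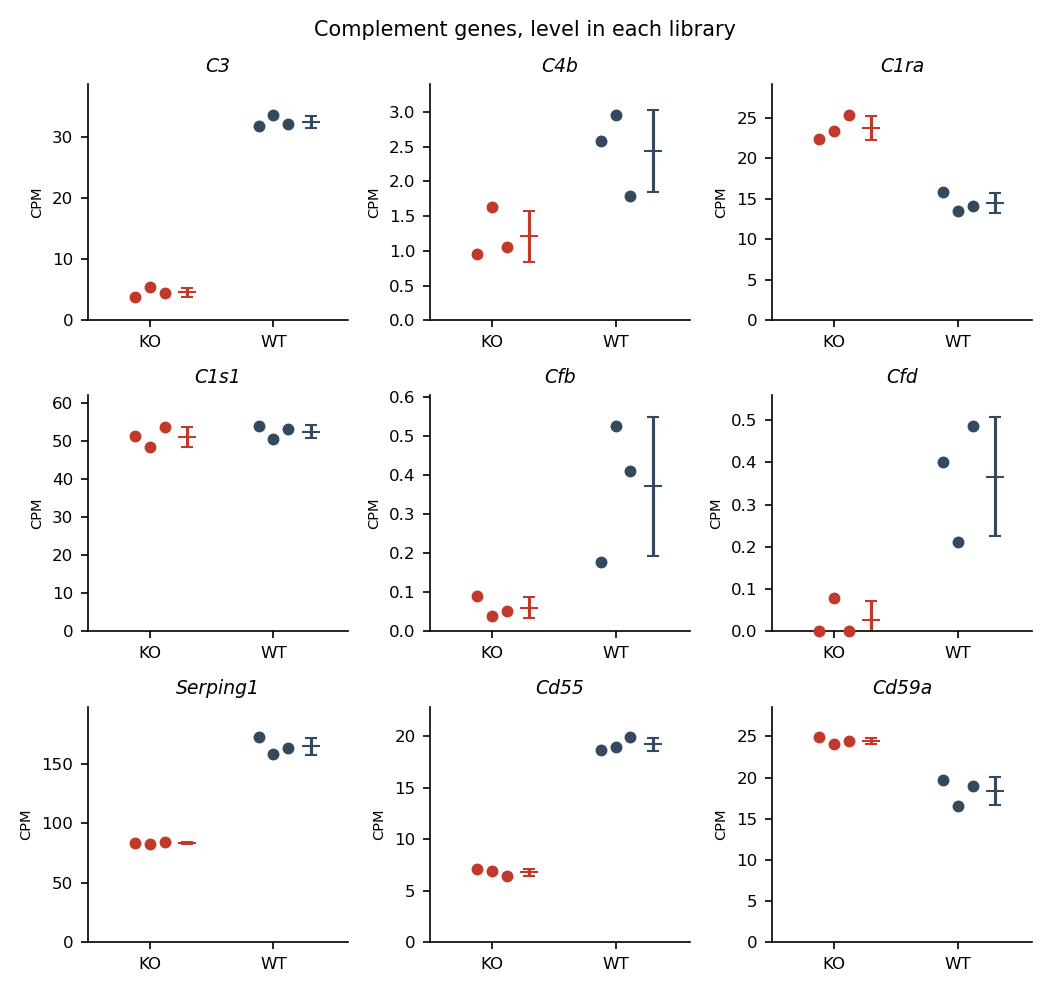
Level of each complement gene in CPM (vertical axis, from 0) in the 3 KO and 3 WT libraries; points are libraries, and the bar beside them is the mean with its SD. C3 lies at 3.9 to 5.38 CPM in KO and 31.7 to 33.5 in WT, whereas the C1s1 libraries of both groups overlap.

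**Figure D2:**
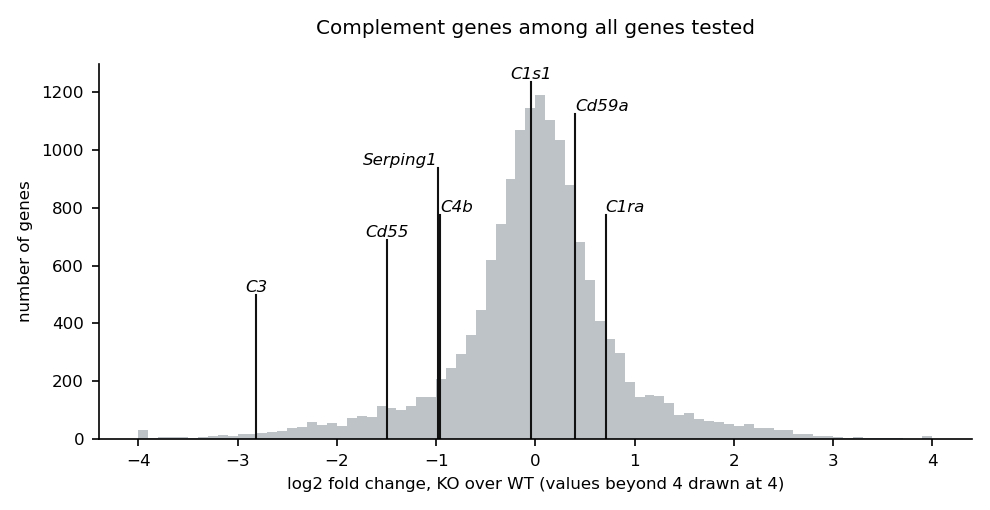
Number of genes (vertical axis) by log2 fold change of KO over WT for all 15518 genes tested, with the 7 tested complement members drawn as lines. C3, at -2.81, lies in the lower tail, and C1s1, at -0.04, lies in the centre.

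C3 is the component on which all activation pathways converge (ENSMUSG00000024164, mm10 chromosome 17, 57203970 to 57228136, minus strand). Its level was 3.9, 5.38 and 4.53 CPM in KO libraries 1 to 3, against 31.7, 33.5 and 32.1 CPM in WT libraries 1 to 3. All 3 KO libraries lay far below all 3 WT libraries, and the spread within each group was small beside the gap. The counts behind these levels were 86 to 135 in KO and 637 to 859 in WT. The log2 fold change was -2.81 (SE 0.099, 95% interval -3.01 to -2.61, adjusted p 1.56e-23, edgeR), so the level in WT was 6.99 times that in KO.

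C4b encodes C4, the substrate of C1s (ENSMUSG00000073418, chromosome 17, 34728380 to 34743882, minus strand). It was low in both groups, at 0.951, 1.63 and 1.05 CPM in KO and 2.58, 2.95 and 1.79 CPM in WT, from 20 to 41 counts in KO and 48 to 58 in WT. The groups did not overlap, but the highest KO library and the lowest WT library lay close together. Its log2 fold change was -0.96 (SE 0.26, 95% interval -1.49 to -0.44, adjusted p 0.00149, edgeR). C4a, a near-identical copy on the same chromosome, could share reads with it; C4a stood at 0.547 ± 0.3 CPM in KO and 0.53 ± 0.123 in WT and was not called (adjusted p 0.928, edgeR). With the counts of both genes added, the log2 fold change was -0.72 (adjusted p 0.00509, edgeR). Over all the alternatives tried on the matrix, the adjusted p of C4b ran from 0.000299 to 0.017.

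Of the proteases of the C1 complex, C1ra rose and C1s1 was not called; the difference between their changes was not tested. C1ra encodes C1r, which activates C1s (ENSMUSG00000055172, chromosome 6, 124512405 to 124523443, plus strand), and stood at 22.4, 23.4 and 25.3 CPM in KO and 15.8, 13.5 and 14.1 CPM in WT. Every KO library was above every WT library, with a log2 fold change of 0.71 (SE 0.083, 95% interval 0.54 to 0.88, adjusted p 3.2e-09, edgeR). C1s1, its neighbour on the opposite strand (ENSMUSG00000038521, 124530345 to 124542359), was at 51.3, 48.3 and 53.5 CPM in KO and 53.8, 50.4 and 53 CPM in WT. These groups overlapped, and the log2 fold change of -0.04 (SE 0.058, adjusted p 0.542, edgeR) had a 95% interval from -0.16 to 0.08, which holds ratios of KO to WT from 0.895 to 1.05. The sign of C1s1 changed when libraries were scaled by total count alone: it was then 0.13 (adjusted p 0.0461, within 0.0461 to 0.986 for all alternatives on the matrix), and the median of all genes was 0.192, with 7224 genes called higher and 3703 lower in place of 5230 and 5123. An annotated antisense gene shares 18.4% of the exonic bases of C1s1, and reads of the pair cannot be told apart unless counting used strand, which no source states. The paralogues C1rb (0.0792 ± 0.0791 CPM in KO, 0.0448 ± 0.00767 in WT) and C1s2 (0.292 ± 0.175 in KO, 0.144 ± 0.0366 in WT) were too low to be tested, and adding their counts left C1ra at 0.71 and C1s1 at -0.04.

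Serping1 had the highest level per kilobase of the members and was lower in KO (ENSMUSG00000023224, chromosome 2, 84765387 to 84775444, minus strand). Its level was 83, 82.9 and 84.1 CPM in KO, against 172, 158 and 163 CPM in WT. The KO libraries lay close together, and all were far below the lowest WT library. The log2 fold change was -0.98 (SE 0.046, 95% interval -1.07 to -0.89, adjusted p 7.68e-20, edgeR), a ratio of KO to WT of 0.507.

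The membrane regulators moved in opposite directions. Cd55, which dissociates C3 convertases (ENSMUSG00000026399, chromosome 1, 130439027 to 130462744, minus strand), was at 7.11, 6.89 and 6.43 CPM in KO and 18.7, 19 and 19.9 CPM in WT. All KO libraries were below all WT libraries, at a log2 fold change of -1.49 (SE 0.097, 95% interval -1.69 to -1.3, adjusted p 8.95e-16, edgeR). Cd59a, which blocks assembly of the membrane attack complex (ENSMUSG00000032679, chromosome 2, 104095801 to 104115354, plus strand), was at 24.9, 24.1 and 24.4 CPM in KO and 19.7, 16.5 and 19 CPM in WT. All KO libraries were above all WT libraries, and the log2 fold change was 0.4 (SE 0.078, 95% interval 0.25 to 0.56, adjusted p 2.76e-05, edgeR). Its copy Cd59b was at 0.402 ± 0.25 CPM in KO and 0.605 ± 0.204 in WT and was not called (adjusted p 0.27); with both counted together the change was 0.38. Cd55b, a copy of Cd55, is not among the genes of the matrix and could not be tested.

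The alternative pathway members were near the limit of detection and were not tested. Cfb (ENSMUSG00000090231, chromosome 17, 34856374 to 34862518) had 2, 1 and 1 counts in the KO libraries, against 4, 10 and 11 in the WT libraries. Summed over each group this gave 0.0605 CPM in KO and 0.366 CPM in WT, a ratio of 0.165 with an exact 95% interval of 0.042 to 0.48 that covers counting error only. Cfb shares 79.5% of its exonic bases with an annotated gene that also spans C2, so its level is uncertain. Cfd (ENSMUSG00000061780, chromosome 10, 79890853 to 79892655) had 0, 2 and 0 counts in KO, against 9, 4 and 13 in WT. A count of 0 allows up to 0.136 CPM in KO library 1 and 0.158 CPM in KO library 3, taking 3 counts as the limit. The group sums gave 0.0302 CPM in KO and 0.381 CPM in WT, a ratio of 0.0794 (exact 95% interval 0.0091 to 0.32, counting error only). With no filter on low counts, edgeR gave log2 fold changes of -2.52 for Cfb (adjusted p 0.00555) and -3.43 for Cfd (adjusted p 0.000708), which raised the members called lower to 6. In that setting 5532 of all 21666 genes were called lower and 5523 higher. The added calls rest on 4 (Cfb) and 2 (Cfd) counts over the KO libraries, and nothing particular to the members is read from the count of 6.

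With the tables per library, 4 members passed the filter, and their values differed from those of the matrix: the log2 fold change was 0.05 for C4b (adjusted p 0.51), 0.19 for C1ra (adjusted p 0.621) and 0.43 for C1s1 (adjusted p 0.00272), by edgeR's quasi-likelihood test. Serping1 was called lower there by the same test at -0.17 (adjusted p 0.0241), against -0.98 in the matrix. As Myod1 has 0 counts in those tables, this sign is not read as bearing on the matrix. C3 had 0 counts in all 6 tables and Cd55 and Cd59a 0 or 1, so their changes rest on the matrix alone.

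Levels of different genes were compared per kilobase of annotated exon. In KO the order was Serping1 (35.9 ± 0.281 CPM per kb), C1s1 (16.3 ± 0.833), Cd59a (13.5 ± 0.229), C1ra (7.95 ± 0.506), Cd55 (1.4 ± 0.0716), C3 (0.895 ± 0.144), C4b (0.213 ± 0.0645), Cfd (0.0288 ± 0.0499) and Cfb (0.0216 ± 0.00934). In WT, C3 stood above C1ra and Cd55, and the order was Serping1 (70.7 ± 3.01), C1s1 (16.7 ± 0.573), Cd59a (10.2 ± 0.922), C3 (6.31 ± 0.187), C1ra (4.86 ± 0.385), Cd55 (3.96 ± 0.12), C4b (0.429 ± 0.104), Cfd (0.396 ± 0.152) and Cfb (0.132 ± 0.0628). Cfd and its neighbours did not differ beyond their spread, Cfb in KO and C4b in WT, and the other neighbours in each order did.

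Ratios between members within a library do not depend on how libraries are scaled. The level per kb of C1s1 was 2.19, 1.97 and 2.01 times that of C1ra in KO and 3.25, 3.55 and 3.57 times in WT. The inhibitor Serping1 was at 2.18, 2.31 and 2.12 times its target C1s1 in KO and at 4.3, 4.22 and 4.15 times in WT. Against its other target C1ra, Serping1 stood at 4.52 ± 0.252 times in KO and 14.6 ± 0.53 times in WT. Cd55 reached 0.104 ± 0.00478 of the level of Cd59a in KO and 0.391 ± 0.0372 in WT, and C3 reached 0.025 ± 0.00408 of that of Serping1 in KO and 0.0894 ± 0.00629 in WT. In each of these ratios every KO library lay below every WT library; they follow from the members' levels given above and were not tested on their own.

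**Figure D3:**
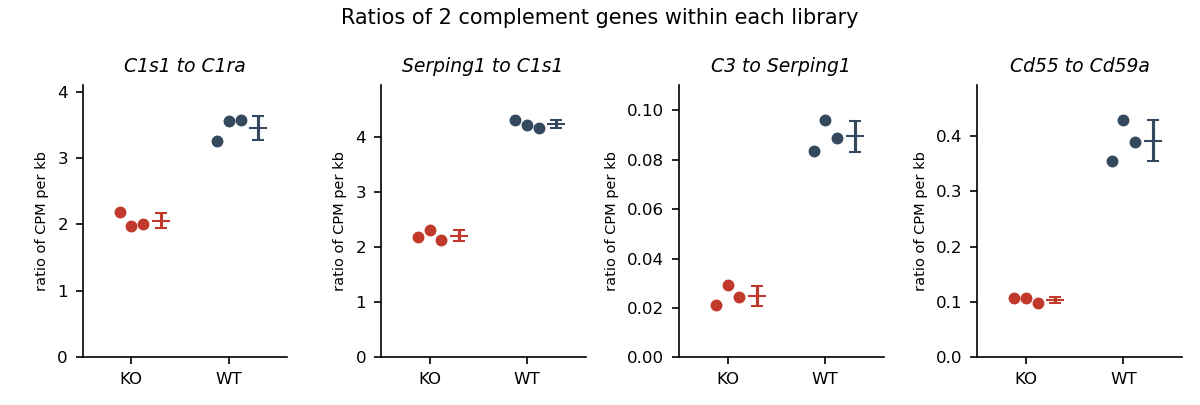
Ratio of the CPM per kb of a pair of complement genes (vertical axis, from 0) in each KO and WT library; points are libraries, and the bar beside them is the mean with its SD. All KO libraries lie below all WT libraries in the 4 ratios, such as 1.97 to 2.19 in KO and 3.25 to 3.57 in WT for C1s1 to C1ra.

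The other genes of the cascade also changed in both directions: the C1q chains and most tested receptors were higher in KO, and Masp1, Vtn and Cd93 were lower. A list of 52 other complement genes held 37 that are in the matrix and 26 that were tested, of which 14 were called higher, 6 lower and 6 not (median log2 fold change 0.33, against 0.021 for all genes tested). Of all genes tested 66.7% were called, 33.7% higher and 33.0% lower. The list was chosen with earlier results of these data known, and nothing particular to it is read from its calls or its median. With scaling by total count alone or by median-of-ratios factors, the counts called in each of the 4 lists of these genes were equal to those given here.

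In the classical and lectin list, 5 of 8 tested genes rose and 1 fell. The C1q chains, which recognise the target, were C1qa (6.25, 6.73 and 7.17 CPM in KO, 1.47, 1.79 and 1.27 in WT), C1qb (11.8 ± 0.457 in KO, 2.06 ± 0.732 in WT) and C1qc (9.17 ± 0.387 in KO, 1.74 ± 0.0828 in WT). Their log2 fold changes were 2.17, 2.51 and 2.4, with SE from 0.15 to 0.18. Masp1, a lectin pathway protease, fell by 0.84 on the log2 scale (SE 0.071, adjusted p 1.39e-12, edgeR), at 18.1 ± 0.552 CPM in KO and 32.4 ± 1.23 in WT. C2, the partner of C4 in the convertase, was at 4.86 ± 0.644 CPM in KO and 5.67 ± 0.307 in WT and was not called (-0.22, adjusted p 0.179); 46.9% of its exonic bases are shared with other genes.

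Of 3 tested alternative and terminal pathway genes, properdin (Cfp) rose (0.46, SE 0.14, adjusted p 0.00475, edgeR), but was no longer called when WT library 3 was left out (0.32, adjusted p 0.0662). Its adjusted p ran from 0.000187 to 0.0662 over the matrix alternatives. Hc, the mouse gene for C5, was at 2.42 ± 0.361 CPM in KO and 1.98 ± 0.251 in WT and was not called (adjusted p 0.231). Of 8 tested regulators, 3 rose and 4 fell. Among those that fell, the adjusted p of Clu ran from 0.00473 to 0.0761 over the matrix alternatives, so its call did not hold in all of them. Cpn1, also lower, had 5, 3 and 4 counts in the KO libraries. Clu and Cpn1 are named after their values were seen. Vitronectin (Vtn), which inhibits the terminal complex, was at 3.84 ± 0.689 CPM in KO and 8.3 ± 0.463 in WT (-1.1, SE 0.14, adjusted p 1.92e-08, edgeR). The membrane regulator Cr1l (Crry, the rodent C3 convertase inhibitor) was at 62.9 ± 1.18 CPM in KO and 49.1 ± 1.7 in WT (0.36, SE 0.055, adjusted p 7.59e-07), and Csmd1 rose by 0.74 (SE 0.17). Cd46, a cofactor for cleavage of C3b, was at 1.54 ± 0.314 CPM in KO and 0.79 ± 0.322 in WT (0.94, SE 0.32, adjusted p 0.00949, edgeR). Leaving out KO library 2 (0.82, adjusted p 0.0526) or WT library 1 (0.64, adjusted p 0.088) ended that call, and the adjusted p ran from 0.00239 to 0.088 over the matrix alternatives. Cd46 shares 14.2% of its exonic bases with genes on the opposite strand.

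Of 7 tested receptor genes, 5 rose and 1 fell. The anaphylatoxin receptors C3ar1 (7.53 ± 1.33 CPM in KO, 1.67 ± 0.209 in WT) and C5ar1 (1.39 ± 0.0662 in KO, 0.62 ± 0.124 in WT) had log2 fold changes of 2.15 and 1.16, and Itgb2, a subunit of complement receptor 3 on leukocytes, of 1.81. Itgam, the other subunit of that receptor, was at 1.8 ± 0.229 CPM in KO and 1.4 ± 0.168 in WT. It was not called (0.36, adjusted p 0.205, edgeR), and 68.7% of its exonic bases are shared with another gene. Itgam is named after its value was seen. C1qbp, a mitochondrial protein that also binds C1q, was at 113 ± 5.8 CPM in KO and 98.1 ± 1.76 in WT (0.21, SE 0.048, adjusted p 0.000261, edgeR). Cd93, a C1q-related receptor of endothelial and myeloid cells, was at 8.97, 8.48 and 10.8 CPM in KO and 43.7, 47.1 and 50.8 in WT (-2.34, SE 0.084, adjusted p 8.8e-23, edgeR). The summed levels of macrophage markers, higher in KO, and of endothelial markers, lower in KO, are given with the marker lists.

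Markers of other cell types moved in the same libraries. Of all genes tested, 66.7% were called, 33.7% higher and 33.0% lower, and the counts called in each list are read against those shares. Of 11 tested macrophage and leukocyte markers, 10 rose and 1 was not called, and the summed level of the 12-gene list was 353 to 368 CPM in KO and 112 to 122 in WT. All 10 endothelial markers fell, with sums of 83.2 to 88.7 CPM in KO and 336 to 343 in WT. Of 18 tested fibro-adipogenic and stromal markers, 12 rose and 5 fell, with sums of 16800 to 17700 CPM in KO and 13900 to 14200 in WT. Of 8 Schwann and glial markers, 6 rose and 1 fell (857 to 877 CPM in KO, 449 to 451 in WT). Of 4 tested adipocyte markers, 1 rose and 2 fell (124 to 135 CPM in KO, 184 to 193 in WT). Most of that sum was Lpl, with means of 119 CPM in KO and 167 in WT. All 10 muscle markers fell (5610 to 6130 CPM in KO, 21600 to 22100 in WT). Each sum is weighted to its most abundant genes, such as Lyz2 (238 CPM in KO, 82.5 in WT) in the macrophage list. Col1a1 (7540 in KO, 6690 in WT) weighs most in the stromal list. In the Schwann list Ngfr (519) weighs most in KO and Erbb3 (244) in WT. The sums are therefore not levels of a cell type. No gene of these lists in the matrix was at 0 in all libraries, and the part of these cell types in the changes of the complement genes was not tested.

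**Figure D4:**
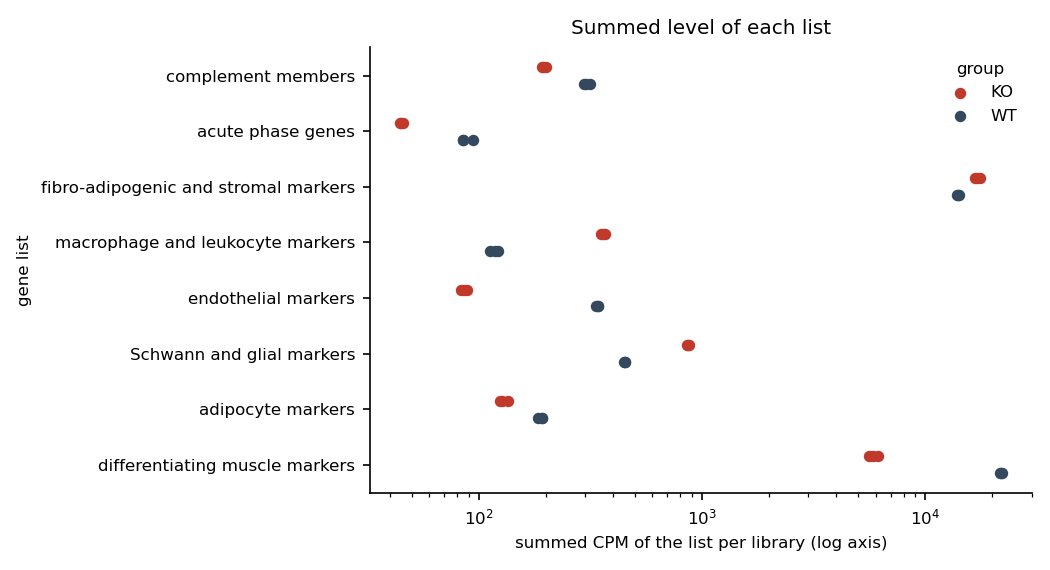
Summed CPM of each gene list (horizontal log axis) in the 3 KO and 3 WT libraries, 1 point a library. The complement members sum to 193 to 199 CPM in KO and 295 to 315 in WT, and the marker lists of other cell types differ between the same libraries in both directions. Each sum is weighted to the most abundant genes of its list.

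Cytokine signalling and acute phase genes, which are known to be expressed alongside complement in inflammation, changed in both directions. Of 21 tested cytokine and transcription factor genes, 10 fell and 6 rose (median log2 fold change -0.06), a split that turned to 7 lower and 11 higher with libraries scaled by total count alone; the share called among all genes was 66.7%, and nothing particular to the list is read from its count. Il6, a cytokine known to induce acute phase proteins, was at 2.67, 1.83 and 2.69 CPM in KO and 20.2, 18.4 and 20.7 in WT (-3.07, SE 0.13, adjusted p 2.43e-21, edgeR). Stat2 (-0.49, SE 0.044), which carries interferon signals, and the interferon gamma receptor subunit Ifngr2 (-0.52, SE 0.05) fell as well. Not all interferon genes of the list fell. Ifnar1 (0.21, SE 0.049), Ifnar2 (0.32, SE 0.064) and Irf1 (0.19, SE 0.063) rose, Ifngr1 (-0.17, SE 0.061) fell and Irf9 (0.01, SE 0.054) was not called. Also in this list, Stat3 (-0.27, SE 0.044) and Il6st (-0.21, SE 0.043) fell, and Socs3 (-0.02, SE 0.063) and Osmr (-0.06, SE 0.045) were not called. These additions are named after their values were seen. Any part of Il6 in the changes of the acute phase genes was not tested. Among the other genes that rose, the interleukin 1 receptor Il1r1 (0.63, SE 0.083) and the cytokine Lif (0.38, SE 0.059) are named after their values were seen. Of 8 tested acute phase genes, 6 fell and 1 rose (median -1.2). The lists were chosen with earlier results of these data known, so no more than a description is read from these medians. Acute phase genes summed to 44.2 to 45.6 CPM in KO and 84.7 to 94.5 in WT. Among these, ceruloplasmin (Cp) was at 23.3 ± 1.29 CPM in KO and 52 ± 2.45 in WT (-1.16, SE 0.065), and haptoglobin (Hp), the lipopolysaccharide-binding protein Lbp and the metalloreductase Steap4 fell by 1.36, 1.24 and 1.33. The 1 acute phase gene that rose, named after its value was seen, was the serpin Serpina3n, at 4.43 ± 0.369 CPM in KO and 2.35 ± 0.343 in WT (0.89, SE 0.18, adjusted p 4.67e-05, edgeR).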

How the data were processed

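Gene counts of 6 libraries (3 KO, 3 WT, grouped by the titles in the labels) were analysed. Raw gene counts were deposited by the authors both as a matrix of the whole series, used here, and as a table per library, used as an alternative. The submitters' processing notes name mm10 as the build and list featureCounts 2.0.1 and HISAT2 2.2.1; for annotation release, counting options and strand, no source used here states them. Symbols, positions and exon lengths come from GENCODE M21, which held 21632 of the 21666 matrix genes, and shared exonic bases were found with bedtools 2.31.1.

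Genes were kept by filterByExpr (minimum count 10, minimum total 15) in edgeR 4.0.16 under R 4.3.3, library sizes were scaled by TMM, and genotype, the only term, was tested by edgeR's quasi-likelihood test, KO over WT, with Benjamini-Hochberg adjustment over all 15518 genes tested. CPM are counts per 1000000 of the TMM-scaled library size. Each SE was derived from the log2 fold change and its F statistic. The procedure was tested on simulated data. All 9 members are named; of other lists, those called genes with the 4 smallest p at a mean of at least 1 CPM, plus paralogues and a few fixed regulators and receptors; some of these genes are counted in their lists but not reported here by name. The members and lists were chosen with earlier results of these data known. Alternatives were DESeq2 1.42.0, limma voom 3.58.1, other scalings, no filter, a replicate block, each library left out and, chosen after seeing the data, paralogue counts summed. Totals per library bound the precision, and intervals from counts cover counting error only.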

Additional observations from a re-analysis of the deposited data

How the results depend on the processing

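The direction and the call of C3, C4b, C1ra, Serping1, Cd55 and Cd59a held under all 13 alternatives run on the matrix, with log2 fold changes of -2.95 to -2.64 for C3, -1.26 to -0.72 for C4b, 0.65 to 0.88 for C1ra, -1.02 to -0.81 for Serping1, -1.53 to -1.32 for Cd55 and 0.33 to 0.58 for Cd59a. C1s1 turned to 0.13 with library size only. Other complement genes called ran from 13 to 16 higher and from 5 to 6 lower. Same-numbered KO and WT libraries did not deviate together (correlations of -0.00964, -0.0258 and -0.00376 across genes, and none of the 3 KO libraries correlated best with its own number); the replicate block gave 5145 genes higher and 5064 lower and left the members at 2 higher and 4 lower. The per-library tables hold other values: C3 has a mean of 0 counts there and 419.3 in the matrix, and C4b 1040 against 40.67. With them, 1 member was called higher and 1 lower, 5 other complement genes higher and 4 lower, and 2691 and 2745 genes of 9871 higher and lower; C4b was at 0.05, C1ra at 0.19, C1s1 at 0.43 and Serping1 at -0.17, and the cause was not tested. Cytokine and transcription factor genes, at 6 higher and 10 lower, were 11 and 7 with library size only. Low counts limit Cfb and Cfd most, with 4 and 2 counts over the 3 KO libraries, and Cfb also shares 79.5% of its exonic bases with another gene.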
